A study of Mus musculus with 15 samples.

Results

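A set of 10 genes for surface and glycocalyx proteins of endothelium (Plvap, Emcn, Podxl, Cd34, Eng, Egfl7, Ecscr, Mmrn2, Clec14a and Cd93) was followed across tumor endothelial populations. They were taken by gene name from a deposited table of normalized counts, were 10 of its 53465 genes, and each name matched 1 gene. The table covered 15 libraries, 5 each from endovascular progenitors (EVP), transit amplifying cells (TA) and definitive differentiated cells (D). All 3 populations came from B16-F0 melanomas, a mouse melanoma line, grown in CAG-GFP mice, which express GFP in all tissues, and were collected on day 15. The study used mice of 8 to 14 weeks, and no further treatment was described for these animals. Host cells were sorted as GFP+, CD34+ and negative for blood lineage markers. Surface CD31 was low in EVP, intermediate in TA and high in D, and surface VEGFR2 was low in EVP and TA and high in D. CD34 protein was thus a gate shared by all libraries, whereas the other 9 proteins were not gates. The labels did not say whether replicates came from separate animals or pools, so p-values measure the spread between these libraries.

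The surface that endothelium turns to the blood is coated with a glycocalyx of glycoproteins and proteoglycans. Sialomucins (Podxl, Emcn, Cd34) carry dense sialylated sugar chains, Plvap forms the diaphragms of fenestrae and caveolae, and the C-type lectins Clec14a and Cd93 bind the matrix protein multimerin-2 (Mmrn2). Eng is a co-receptor for TGF-beta family ligands, Ecscr is a small membrane protein of endothelium, and Egfl7 is a secreted, matrix-bound protein whose gene hosts the microRNA miR-126.

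Each library held between 5394356 and 26513073 reads on genes (median 19049194). The libraries differed by replicate number, with replicate 1 farthest out. The transcript Gm10800 took 8.50% to 10.6% of reads in replicate 1, 0.0113% to 0.701% in replicates 2 and 3, and at most 0.000336% in replicates 4 and 5. The share of olfactory receptor genes with a read was 81.6% to 98.3% in replicate 1. It was 14.5% to 71.0% in replicates 2 and 3, and 2.89% to 5.06% in replicates 4 and 5. The part of this split in the results was not tested. A count of 3 reads corresponded to 1.81 to 10.5 normalized counts. The summed level of 8 pan-endothelial markers (Cdh5, Tie1, Tek, Erg, Esam, Robo4, Flt1 and Vwf) was 1966 to 3876 normalized counts in EVP, 7295 to 49510 in TA and 65414 to 114089 in D. The sum of 8 fibroblast markers ran the other way, from 808270 to 1453114 in EVP, 187973 to 603354 in TA and 1145 to 4173 in D. Melanoma markers summed to 29776 to 67410 in EVP, 69334 to 176152 in TA and 18213 to 47920 in D. No gene of these 3 lists was at or under 3 reads in every library of a population. Limma called 7 of the 8 endothelial markers as higher in D against EVP. Tek, an angiopoietin receptor, was not called (log2 difference 0.72 ± 0.43, adjusted p = 0.32), with 1578 ± 747 normalized counts in EVP, 583 ± 325 in TA and 2379 ± 681 in D, so that it made up much of the EVP sum. In bulk libraries fewer cells of a type and less RNA per cell cannot be told apart. The part of these markers in the results that follow was not tested.

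Promoter sequence was at hand for 5 of the 10 genes (Cd34, Egfl7, Eng, Emcn and Clec14a), as 7 windows of the 250 bases before RefSeq transcript starts in GRCm38.p6, because most of these genes moved together between populations. The letters CAGGAA, or TTCCTG on the other strand, were in 5 of the 7 windows and in 25.7% of 32851 windows of that length. They hold the shorter ETS core GGAA, which was not counted alone. Of the 7 windows 3 belong to Egfl7, and the Eng window and 1 Egfl7 window do not hold CAGGAA on either strand. The SOX letters ACAAT were in 3 (27.7% of all windows), GATAA in 1 (22.6%) and CACCC in 3 (52.0%), each on either strand. Below are windows shown because they hold CAGGAA or TTCCTG, 5' to 3' on the gene's strand without annotated exon bases. They are those of Cd34, the member that differed least between EVP and D, and of Emcn, Egfl7 and Clec14a. Capitals mark CAGGAA and TTCCTG only, not every GGAA or TTCC. The windows span chr1:194938571-194938818 (+), chr3:137340828-137341066 (+), chr2:26583615-26583863 (+) and chr12:58269291-58269508 (-). The Egfl7 window lies inside the gene, in an intron of its longer transcripts, and the others lie just upstream of their genes. A further Egfl7 window, chr2:26580833-26581055 (+), holds 2 matches to CAGGAA or TTCCTG and is not shown.
Cd34: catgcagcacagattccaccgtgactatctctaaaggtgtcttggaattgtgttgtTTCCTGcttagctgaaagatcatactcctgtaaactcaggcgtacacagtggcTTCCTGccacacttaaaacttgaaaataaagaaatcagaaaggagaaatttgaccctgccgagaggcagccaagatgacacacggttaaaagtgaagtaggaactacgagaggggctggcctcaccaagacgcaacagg
Emcn: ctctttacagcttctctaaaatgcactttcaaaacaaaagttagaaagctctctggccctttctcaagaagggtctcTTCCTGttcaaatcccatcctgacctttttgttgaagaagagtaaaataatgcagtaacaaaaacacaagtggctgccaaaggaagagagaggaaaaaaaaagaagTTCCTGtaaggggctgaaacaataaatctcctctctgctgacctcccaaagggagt
Egfl7: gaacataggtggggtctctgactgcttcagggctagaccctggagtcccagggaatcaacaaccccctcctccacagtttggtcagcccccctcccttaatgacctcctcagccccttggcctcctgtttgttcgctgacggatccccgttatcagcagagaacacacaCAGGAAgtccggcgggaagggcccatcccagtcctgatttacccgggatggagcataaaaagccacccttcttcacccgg
Clec14a: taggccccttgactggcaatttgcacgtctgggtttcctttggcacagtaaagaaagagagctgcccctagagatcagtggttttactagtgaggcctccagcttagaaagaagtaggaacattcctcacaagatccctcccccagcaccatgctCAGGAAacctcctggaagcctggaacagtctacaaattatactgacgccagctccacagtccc
Cd34 and Emcn each held 2 copies of TTCCTG, and their levels followed unlike patterns. A match describes letters only and was not read as a binding site.

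Of the sialomucins, Podxl and Emcn were far higher in D than in EVP, whereas Cd34 was not distinguished between them. Podxl (chr6:31519488-31563981), the sialomucin also known from kidney podocytes, was at 14.04, 1.31, 0, 57.5 and 114 normalized counts in EVP replicates 1 to 5, at 1456, 345, 501, 692 and 79.7 in TA, and at 3035, 3347, 2327, 5718 and 3916 in D. EVP replicates 2 and 3 held 1 and 0 Podxl reads, and every D library was above every other library. Emcn (chr3:137341067-137432185), a sialomucin of capillary and venous endothelium, was at 176, 20.9, 32.7, 145 and 389 in EVP, at 8568, 1485, 6572, 2742 and 381 in TA, and at 12363, 14667, 16633, 19474 and 19197 in D. The lowest TA library lay below the highest EVP library for both genes. Cd34 (chr1:194938819-194961279), itself a gate, was at 12879, 25025, 13138, 30302 and 9968 in EVP, at 19620, 9182, 9817, 10502 and 3901 in TA, and at 22198, 25690, 24157, 31068 and 32082 in D. Its EVP values overlapped those of both other populations, while all 5 TA libraries were below all 5 D libraries.

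**Figure D1:**
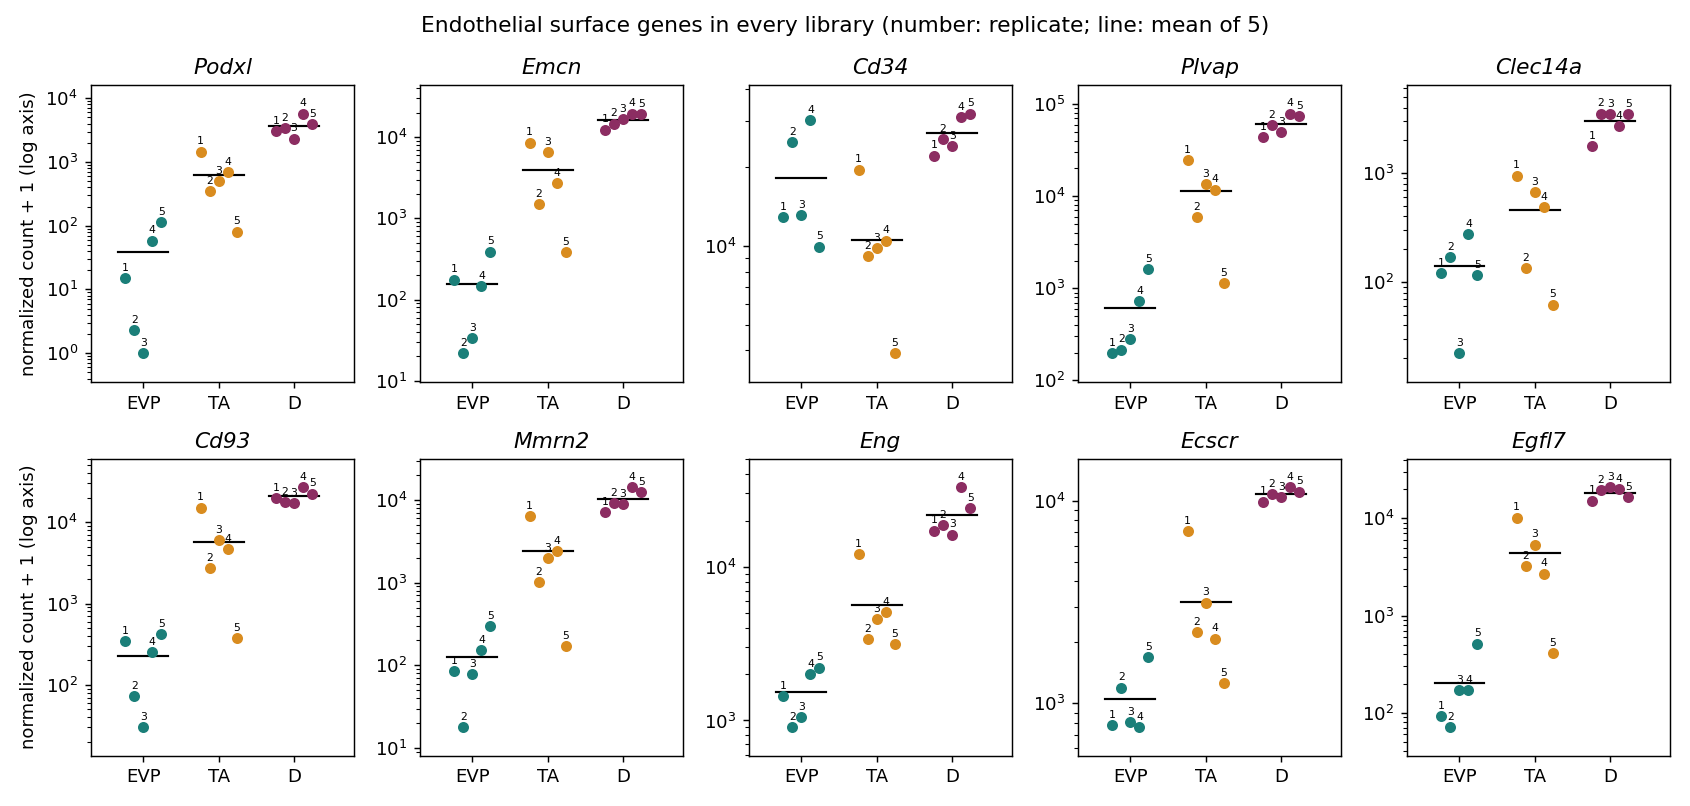
Normalized count plus 1 (log axis) of each gene in every EVP, TA and D library, with the replicate number beside each point and a line at the mean of 5. D libraries lie above all EVP libraries for 9 genes, Cd34 being the exception, and TA replicate 5 is the lowest TA library in every panel.

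Plvap (chr8:71497765-71511752), the diaphragm protein of fenestrae and caveolae, was at 197, 216, 280, 724 and 1628 normalized counts in EVP replicates 1 to 5. It was at 24820, 5913, 13484, 11775 and 1139 in TA, and at 43913, 58729, 49826, 78687 and 73938 in D. The D libraries stood clear of the rest, and TA replicate 5 alone among TA libraries fell within the EVP range.

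The lectins and their matrix ligand had unlike sizes of difference. Clec14a (chr12:58264720-58269290) was at 119, 170, 21.3, 276 and 114 normalized counts in EVP, at 948, 134, 666, 490 and 61.0 in TA, and at 1782, 3511, 3491, 2707 and 3499 in D. TA replicates 2 and 5 lay within its EVP range. Cd93 (chr2:148436640-148443563) was at 344, 71.9, 29.5, 249 and 422 in EVP, at 15104, 2708, 5998, 4645 and 375 in TA, and at 19729, 17495, 17194, 26696 and 22432 in D. Mmrn2 (chr14:34375465-34404287), the matrix ligand of both lectins, was at 84.3, 17.0, 76.9, 153 and 295 in EVP, at 6396, 1024, 1979, 2433 and 169 in TA, and at 7177, 9127, 8916, 14192 and 12473 in D. Cd93 and Mmrn2 shared the pattern of 4 TA libraries above, and 1 TA library within, the EVP range. Podxl, Emcn, Plvap, Ecscr and Egfl7 had it too.

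Eng and Ecscr were the members other than Cd34 with the highest EVP levels relative to D. Eng (chr2:32646595-32682669), the endoglin co-receptor, was at 1433, 907, 1049, 2003 and 2206 normalized counts in EVP, at 12113, 3400, 4553, 5053 and 3147 in TA, and at 17212, 18699, 16217, 32850 and 24223 in D. It was the only member whose 3 populations did not overlap at all. Ecscr was at 779, 1194, 809, 764 and 1691 in EVP, at 7089, 2252, 3139, 2085 and 1255 in TA, and at 9899, 10796, 10380, 11615 and 11072 in D. Its D libraries varied least of all members, with a coefficient of variation of 6.09%, against 13.1% to 34.9% for the other members in D.

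Egfl7 (chr2:26580014-26593120) was at 91.3, 70.5, 169, 171 and 514 normalized counts in EVP, at 10161, 3213, 5364, 2704 and 409 in TA, and at 15238, 19371, 20797, 19951 and 16384 in D. EVP replicate 5 lay above the lowest TA library, and D lay above both. The microRNA it hosts is printed with its seed, bases 2 to 8, in capitals, because it is the other product of this locus (RefSeq, GRCm38.p6, chr2:26591402-26591423, + strand).
miR-126a-3p: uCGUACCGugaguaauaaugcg
This position overlaps an annotated Egfl7 exon, and the separate Mir126a gene had 0 reads in all 15 poly(A)-primed libraries, which says nothing of the mature microRNA.

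Several members share exon positions with genes on the opposite strand, and the strand setting of the counting was not given in the sources used here. In EVP, Agpat2 was at 116 to 255 normalized counts beside Egfl7, and Fpgs at 491 to 732 beside Eng, so these partners were of the order of the member's own EVP level. In D, Agpat2 reached 270 and Fpgs 560, far below Egfl7 and Eng. Gm16897 beside Cd34 reached 270 and 1700066B19Rik beside Ecscr 56.2 in any library. Gm20532, which lies in Egfl7 on the same strand, was listed at 0 throughout.

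The first comparison asked how differentiated cells differed from progenitors. The test called 9 of the 10 members as higher in D than in EVP at an adjusted p under 0.05 (limma on log2(normalized count + 1), adjusted over 25549 genes), where 7.46% of all tested genes were higher in D, 11.6% were higher in EVP and 19.0% differed in either direction. The same 9 had no D library within the EVP range, a pattern found higher in D for 7.52% of tested genes. The median log2 difference of the members was 6.84, and that of all tested genes was -0.46. Podxl had the largest log2 difference, 8.21 ± 1.05 (SE, n = 5 per group; adjusted p = 1.36e-05), from a mean of 37.4 ± 48.8 (SD) in EVP to 3669 ± 1281 in D. Emcn followed at 7.43 ± 0.78 (adjusted p = 1.71e-06), from 153 ± 149 to 16467 ± 3025 normalized counts, a ratio of means of 108. The lead of Podxl depended on the measure, as EVP replicates 2 and 3 held 1 and 0 reads. Its ratio of means was 98.1, below those of Emcn and Plvap (100). With DESeq2 without replicate 1 Podxl (6.46) lay below Emcn (6.89), Cd93 (6.76) and Plvap (6.52). The log2 differences of Plvap (7.12 ± 0.68), Cd93 (7.07 ± 0.80), Egfl7 (6.85 ± 0.64) and Mmrn2 (6.83 ± 0.77) lay within 1 SE of one another, with adjusted p from 5.02e-07 to 3.89e-06.

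Clec14a, Eng and Ecscr were also higher in D, by smaller amounts. Clec14a differed by 4.75 ± 0.69 on the log2 scale (adjusted p = 5.84e-05), a ratio of means of 21.4. Eng differed by 3.88 ± 0.33 (adjusted p = 1.88e-07) from 1519 ± 572 to 21840 ± 6888 normalized counts, a ratio of 14.4. Ecscr differed by 3.43 ± 0.34 (adjusted p = 8.72e-07), a ratio of 10.3. Cd34 had a log2 difference of 0.68 ± 0.35 with a 95% interval from -0.05 to 1.42 (adjusted p = 0.222), from 18262 ± 8870 in EVP to 27039 ± 4336 in D. These 9 calls were the same in number in the 29 alternatives tried.

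**Figure D2:**
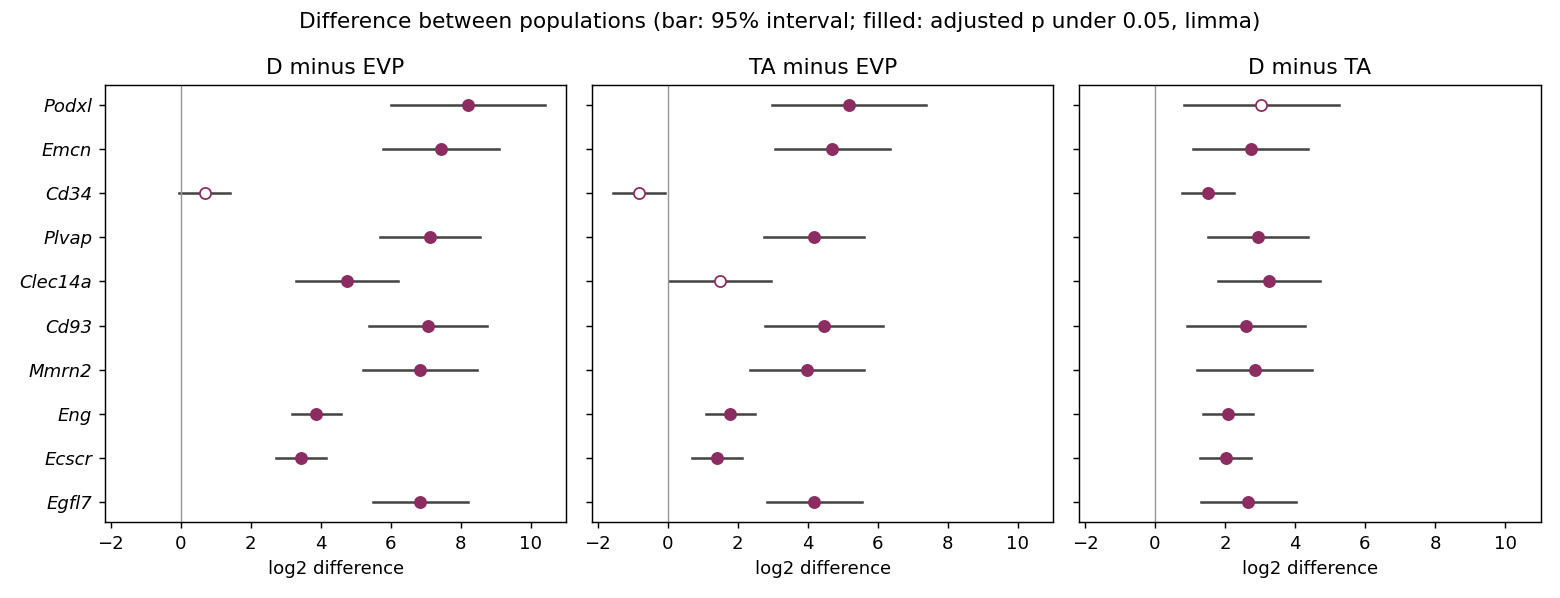
Log2 difference of each gene between populations (x axis, second minus first population) with its 95% interval, filled where the adjusted p was under 0.05 in limma. All intervals of D minus EVP lie above 0 except that of Cd34, which starts at -0.05, and D minus TA differences run from 1.51 for Cd34 to 3.26 for Clec14a.

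The second comparison asked what set transit amplifying cells apart from progenitors. Of the 10 members, 8 were higher in TA than in EVP, where 1.94% of tested genes were higher in TA, 1.56% were higher in EVP and 3.50% differed in either direction. The median log2 difference was 4.07 over the members and -0.09 over all tested genes. Podxl (5.17 ± 1.05, adjusted p = 0.0109), Emcn (4.70 ± 0.78, adjusted p = 0.00399), Cd93 (4.47 ± 0.80, adjusted p = 0.00552), Egfl7 (4.18 ± 0.64, adjusted p = 0.0026), Plvap (4.17 ± 0.68, adjusted p = 0.00353) and Mmrn2 (3.98 ± 0.77, adjusted p = 0.0088) differed most. Eng (1.79 ± 0.33, adjusted p = 0.00693) and Ecscr (1.41 ± 0.34, adjusted p = 0.0268) differed less. Only Eng had no overlap between EVP and TA libraries, against 1.59% of tested genes that were higher in TA without overlap. Clec14a (1.49 ± 0.69, 95% interval 0.03 to 2.96, adjusted p = 0.307) and Cd34 (-0.83 ± 0.35, 95% interval -1.56 to -0.09, adjusted p = 0.248) did not pass.

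The EVP against TA calls changed when the replicate 1 libraries were left out. Without those 3 libraries limma called 0 of the 10 members and 0.407% of all genes in either direction. The log2 differences of the 8 members then ran from 0.97 to 4.81 with adjusted p from 0.063 to 0.138, and 9 of the 10 members had an unadjusted p under 0.05. On the same 12 libraries edgeR called 4 (Emcn, Cd93, Plvap and Egfl7) and 1.22% of all genes in either direction. DESeq2 called 8 and 6.90% of all genes, the 8 including Cd34 as lower in TA (log2 difference -1.23, adjusted p = 0.021). The Ecscr call was lost when any 1 of EVP replicates 1 to 4 or TA replicate 3 was left out (log2 1.32 to 1.48, adjusted p 0.055 to 0.075).

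The third comparison placed transit amplifying cells against differentiated cells. There were 9 members higher in D than in TA, where 4.31% of tested genes were higher in D, 8.21% were higher in TA and 12.5% differed in either direction. All 10 had every TA library below every D library, a pattern found for 3.69% of tested genes. The median log2 difference was 2.70 over the members and -0.24 over all tested genes. Clec14a differed most among those called (3.26 ± 0.69, adjusted p = 0.00396), followed by Plvap (2.96 ± 0.68, adjusted p = 0.00663). Eng (2.09 ± 0.33, adjusted p = 0.000392) and Ecscr (2.02 ± 0.34, adjusted p = 0.000627) had the smallest adjusted p. Cd34, not distinguished between EVP and D, was higher in D than in TA by 1.51 ± 0.35 (adjusted p = 0.00703), from 10604 ± 5676 to 27039 ± 4336 normalized counts. Mmrn2 (2.85 ± 0.77, adjusted p = 0.0207), Emcn (2.73 ± 0.78, adjusted p = 0.0278), Egfl7 (2.67 ± 0.64, adjusted p = 0.00962) and Cd93 (2.60 ± 0.80, adjusted p = 0.0403) completed the 9. Podxl had a log2 difference of 3.04 ± 1.05 and did not pass (adjusted p = 0.0691).

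Some of these calls turned on single libraries. That of Cd93 was lost without TA replicate 2, 4 or 5 or any 1 D library (log2 1.81 to 2.72, adjusted p 0.055 to 0.090), and that of Emcn without TA replicate 2 or 5 or D replicate 2, 3, 4 or 5 (log2 2.06 to 2.77, adjusted p 0.053 to 0.068). That of Mmrn2 was lost without D replicate 4 (log2 2.72, adjusted p = 0.055). Podxl passed in 8 of 29 alternatives. It did so without EVP replicate 3, EVP replicate 5 or TA replicate 1 (limma adjusted p 0.031 to 0.044). It also passed in limma with only the TA and D libraries (adjusted p = 0.0068), a pseudocount of 8 (0.0115) or array weights (0.040). Without replicate 1 it passed in edgeR (0.038) and DESeq2 (0.036). With edgeR on whole reads 6 members passed, and Cd93, Emcn and Mmrn2 did not (adjusted p 0.072 to 0.118).

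Within TA the libraries kept an order across the members. TA replicate 1 was the highest and TA replicate 5 the lowest TA library for 10 of 10 members. On a scale set for each gene from 0 at the EVP mean of log2 values to 1 at the D mean, the TA mean lay at 0.63 for Podxl, Emcn and Cd93, 0.61 for Egfl7, 0.59 for Plvap, 0.58 for Mmrn2, 0.46 for Eng, 0.41 for Ecscr and 0.31 for Clec14a. TA replicate 1 lay at 0.66 (Clec14a) to 0.94 (Cd93) and TA replicate 5 at -0.17 (Clec14a) to 0.34 (Podxl). Cd34 lay off this scale, with a TA mean below both others. The marker sums moved with the same libraries: TA replicate 1 had the highest pan-endothelial sum (49510) and the lowest fibroblast (187973), mural (6065) and leukocyte (3919) sums of the TA libraries. TA replicate 5 had the lowest pan-endothelial sum (7295) and the highest fibroblast (603354) and mural (152802) sums. Mural sums were 7176 to 33638 in EVP and 5110 to 10805 in D, and leukocyte sums over 8 genes were 1564 to 7401 in EVP, up to 23420 in TA and 1570 to 2964 in D. Their part in the TA order was not tested.

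**Figure D3:**
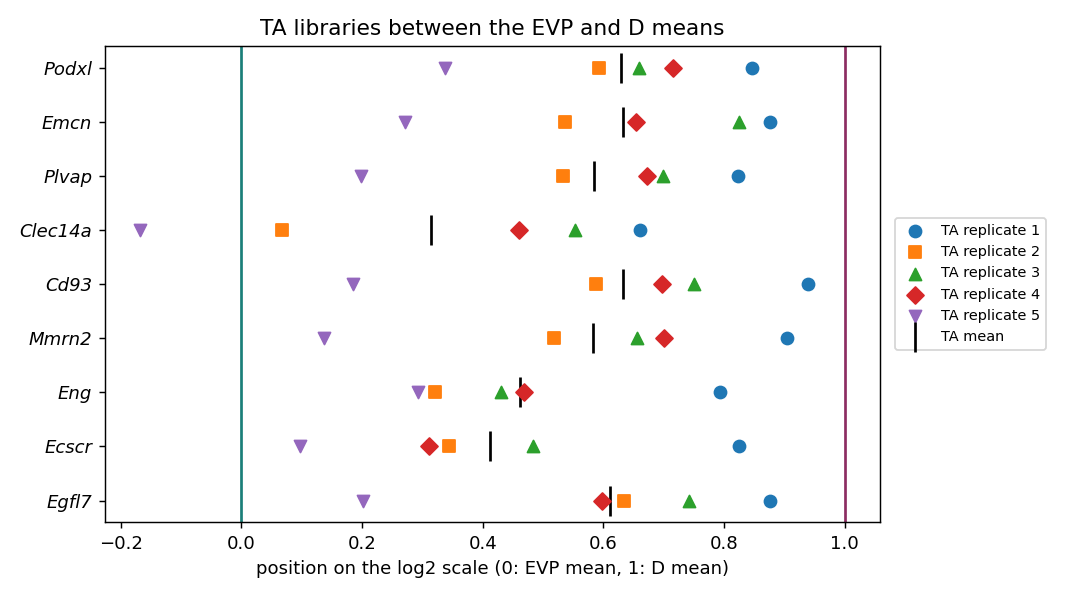
Position of each TA library (symbols) and of the TA mean (black bar) on the log2 scale between the EVP mean (0) and the D mean (1), for the 9 members other than Cd34. Replicate 1 is farthest to the right and replicate 5 farthest to the left in every row, and only replicate 5 for Clec14a falls below 0, at -0.17.

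Within EVP, replicate 5 was the highest library for 8 of 10 members, the exceptions being Cd34 and Clec14a, which were highest in replicate 4. EVP replicate 5 also had the highest pan-endothelial (3876), mural (33638), melanoma (67410) and platelet (659) marker sums of the EVP libraries, in normalized counts, and their part was not tested. It was the lowest EVP library for Cd34. In D, replicate 4 was the highest library for 7 members and replicate 1 the lowest for 7.

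The order of the members by level changed between populations when normalized counts were divided by exon length. In EVP, Cd34 led at 2505 ± 1217 (SD, n = 5) normalized counts per kb and took 33.4% to 75.9% of the summed level per kb of the 10 members. Ecscr (598 ± 229), Eng (375 ± 141) and Plvap (306 ± 307) followed, and the other 6 were at 6.81 (Podxl) to 56.7 (Egfl7). Neither Eng and Plvap nor neighbours from Egfl7 down to Emcn differed beyond their spread. Egfl7 lay below Plvap in all 5 EVP libraries, by a mean of 0.97 SD of the paired difference. In D, Plvap led at 30709 ± 7558 per kb with 46.7% to 53.1% of the sum, and Cd34 was the fifth member at 3709 ± 595 with 5.54% to 6.44%. Between them stood Ecscr (6137 ± 374), Eng (5395 ± 1702) and Egfl7 (5124 ± 672). Neither Ecscr and Eng nor Eng and Egfl7, the neighbours in this order, differed beyond their spread. Cd93 (3102 ± 592) and Emcn (3044 ± 559) did not differ beyond their spread, Mmrn2 was at 2611 ± 721, and Podxl (669 ± 233) and Clec14a (656 ± 167) closed the order. In TA, Plvap also led (5750 ± 4501 per kb, 19.7% to 47.0% of the sum), ahead of Ecscr (1806 ± 1309), Cd34 (1455 ± 779), Eng (1397 ± 913) and Egfl7 (1220 ± 1029), of which the last 4 were not separated between neighbours. Cd93 (864 ± 844), Emcn (730 ± 644) and Mmrn2 (604 ± 604) came next in TA, and Podxl (112 ± 94.9) and Clec14a (101 ± 80.9) were last. Podxl lay below Mmrn2 in all 5 TA libraries, by a mean of 0.97 SD of the paired difference. Other neighbours among these last genes were not separated beyond their spread.

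To set the members against 1 endothelial gene, the log2 value of Cdh5, the junctional VE-cadherin, was subtracted from every gene in each library. Cdh5 itself was at 72.3 ± 67.9 normalized counts in EVP, 2781 ± 2866 in TA and 9818 ± 2251 in D. It rested on 14 to 264 reads in the EVP libraries. The spread of Cdh5 between libraries enters the ratio of every gene, and limma pools spread over genes as if they were independent. Intervals relative to Cdh5, or to another shared reference, are therefore too narrow and the p-values too small. In 4 members the ratio to Cdh5 was higher in EVP than in D, as it was for 99.4% of tested genes, and 0 genes were called higher in D. Cdh5 itself had a log2 difference of 7.54, so these calls say only that a gene rose less than Cdh5. The ratio of Cd34 to Cdh5 fell from 8.33 ± 1.69 (SD) in EVP to 1.48 ± 0.27 in D on the log2 scale, a difference of -6.85 (95% interval -8.82 to -4.89, limma adjusted p = 2.1e-11). The differences were -4.11 for Ecscr (adjusted p = 3.2e-05), -3.66 for Eng (adjusted p = 0.00021) and -2.79 for Clec14a (adjusted p = 0.0068). The other 6 members were not distinguished from Cdh5: their differences ran from -0.71 (Mmrn2) to 0.67 (Podxl), with interval bounds from -2.67 to 2.75, wide enough to hold several-fold differences.

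Between EVP and TA the ratio to Cdh5 was again higher in EVP for 4 members, against 98.3% of tested genes, with differences of -5.73 for Cd34, -3.48 for Ecscr, -3.40 for Clec14a and -3.11 for Eng (limma adjusted p from 3.0e-07 to 0.0021). Between TA and D limma called 0 of the 10 members and 63.7% of tested genes as higher in TA. The members' differences ran from -1.13 (Cd34) to 0.62 (Clec14a), and 0 had an unadjusted p under 0.05. The result depended on the reference, because a change of reference shifts every gene by the same amount. Against the mean of the 8 pan-endothelial markers, Clec14a was no longer called between EVP and D (-1.10, adjusted p = 0.157), whereas Podxl (2.36, adjusted p = 0.0038) and Emcn (1.58, adjusted p = 0.031) were called as higher in D. Cd34, Ecscr and Eng kept their calls there, where 98.7% of all genes were called in either direction. That mean includes Tek, which differed by only 0.72.

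**Figure D4:**
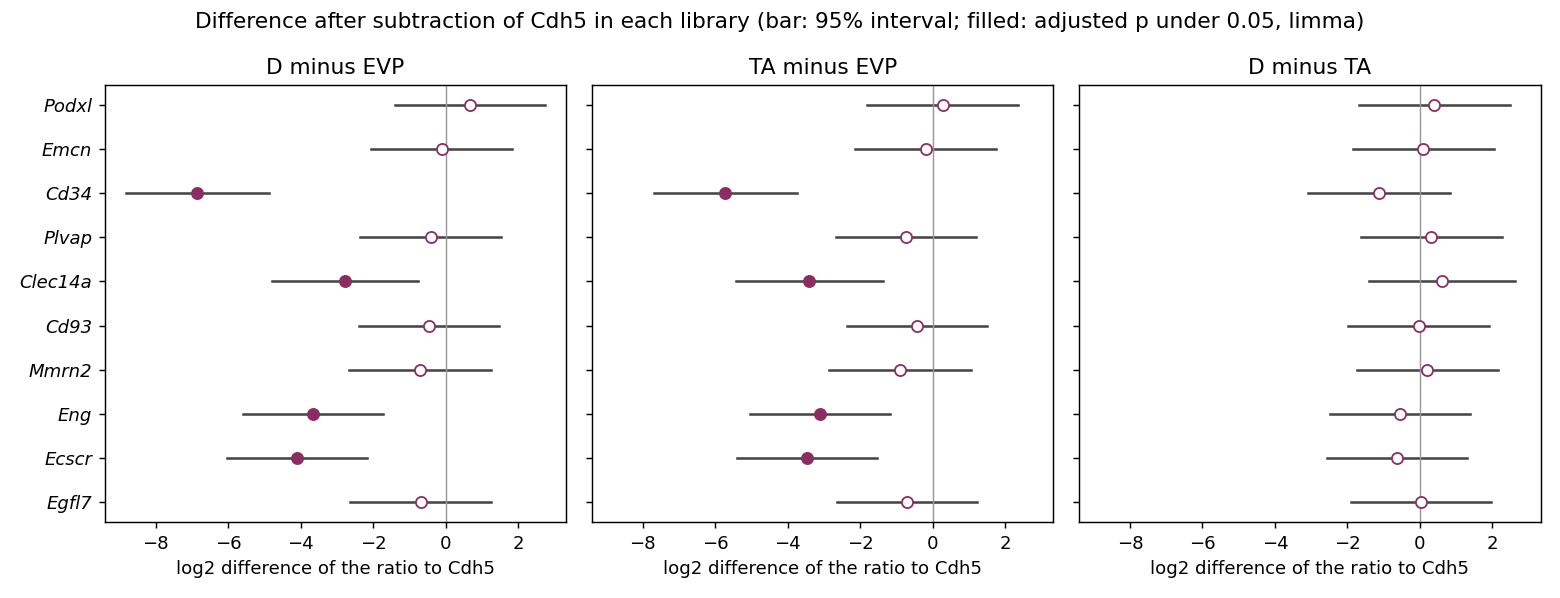
Log2 difference of each gene's ratio to Cdh5 (x axis, second minus first population) with its 95% interval, filled where the adjusted p was under 0.05 in limma. Cd34, Clec14a, Eng and Ecscr lie left of 0 in D minus EVP and TA minus EVP, from -6.85 to -2.79, and all 10 intervals of D minus TA include 0. The intervals are too narrow, because the spread of Cdh5 enters every ratio.

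Other genes of the same pathways were read from 7 lists. Of their 69 tested genes limma called 22 as higher in D than in EVP and 24 as higher in EVP, against 7.46% and 11.6% of all tested genes. edgeR called 19 and 21 of them, and DESeq2 22 and 24. The counts by list that follow are those of limma unless another tool is named. Of 7 genes of the caveola coat, which lies with Plvap at caveolae, 6 were higher in D than in EVP and 0 lower (median log2 difference 1.08, against -0.46 over all genes). The largest were the caveolin Cav2 (3.97 ± 0.34), Cavin2 (3.61 ± 0.40), the caveolin Cav1 (1.95 ± 0.31) and Cavin3 (1.08 ± 0.23). Of 8 genes of the endoglin receptor complex and its targets, 6 were higher in D and 2 in EVP (median 0.84), with Id1, an early target of BMP signals, at 4.73 ± 0.46, the signal transducer Smad1 at 2.39 ± 0.41, and the TGF-beta receptors Tgfbr2 at -2.11 ± 0.26 and Tgfbr1 at -1.14 ± 0.30. Of the 9 sialomucin relatives and cytoplasmic partners, 3 were higher in D and 4 in EVP (median 0.39). They included Slc9a3r2, a scaffold that binds podocalyxin (4.34 ± 0.34), the podocalyxin relative Podxl2 (-4.12 ± 0.74), the addressin Madcam1 (3.39 ± 1.06) and the scaffold Slc9a3r1 (-1.83 ± 0.58). Madcam1 was low, at 3.36 ± 5.94 (SD) normalized counts in EVP and 59.2 ± 85.9 in D, with overlapping libraries.

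Heparan sulfate proteoglycans are the other main part of the glycocalyx. Of 11 core proteins 2 were higher in D and 7 in EVP (median log2 difference -3.16), led by the glypican Gpc3 (-8.68 ± 0.51), the syndecan Sdc2 (-6.11 ± 0.37), Gpc6 (-5.42 ± 0.55) and Sdc4 (-4.69 ± 0.29). Of 19 tested synthesis and editing genes 2 were higher in D and 5 in EVP (median -0.15). The largest log2 differences were those of the sulfotransferase Hs6st2 (-6.17 ± 1.11), the sulfatases Sulf1 (-5.95 ± 0.41) and Sulf2 (-3.50 ± 0.51), and the heparanase Hpse (-2.73 ± 0.34). The lead of Hs6st2 depended on the measure. Its ratio of the EVP mean to the D mean was 7.96, below those of Sulf1 (55.1) and Sulf2 (10.1). Of 10 tested genes for mucin-type O-glycans and sialic acid, 2 were higher in D, the sialyltransferases St6galnac3 (4.58 ± 0.57) and St3gal6 (1.95 ± 0.26), and 2 in EVP, the sialyltransferase St3gal1 (-2.08 ± 0.39) and C1galt1, the core 1 synthase (-1.17 ± 0.33), with a median of 0.25. Of the 5 relatives of the lectins and of Mmrn2, 4 were higher in EVP and 1 in D (median -1.02): the lectin Cd248 at -6.63 ± 0.62, Emilin2 at -6.10 ± 0.23, Mmrn1 at 5.11 ± 1.36 and the lectin Thbd at -1.02 ± 0.33. Mmrn1 was at 45.9 ± 88.7 (SD) normalized counts in EVP and 389 ± 372 in D, with overlapping libraries. Of these 5 genes edgeR and DESeq2 each called 0 as higher in D. EVP and D libraries also overlapped for Hs6st2, Thbd, C1galt1 and Tgfbr1. Fibroblast marker sums were higher in every EVP library than in any D library, and their part in these differences was not tested.

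Between EVP and TA limma called 5 of these 69 genes as higher in TA and 7 as higher in EVP, against 1.94% and 1.56% of all tested genes. Of the 10 O-glycan and sialic acid genes 2 were higher in TA and 2 in EVP, and of the 8 endoglin complex genes 1 was higher in TA and 1 in EVP. Among the 7 caveola genes 1 was higher in TA, as was 1 of the 9 sialomucin relatives and partners. Higher in EVP were 1 of 19 synthesis and editing genes and 3 of the 5 relatives of the lectins and Mmrn2. Of the 11 core proteins limma and edgeR called 0, with 5 at an unadjusted p under 0.05, and DESeq2 called 1 as higher in TA and 3 as higher in EVP. Between TA and D, 17 of the 69 genes were higher in D and 16 in TA, against 4.31% and 8.21% of all tested genes. Here 5 of 7 caveola genes and 5 of 8 endoglin complex genes were higher in D and 0 lower, while of the 11 core proteins 1 was higher in D and 7 in TA.

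The genes outside the 10 members whose log2 values lay closest to each member, after centring each gene on its mean over the 15 libraries, included other vascular genes for 5 members. The mean absolute difference was 0.24 for Plvap with Flt4 and 0.26 with Cd300lg, 0.28 for Mmrn2 with Tie1 and 0.30 with Flt4, and 0.26 for Egfl7 with Flt4 and 0.27 with Icam2. Cd93 was nearest to Pecam1 (0.35) and Cdh5 (0.36), and Emcn to Pecam1 (0.43) and Adgrl4 (0.44), although the fellow member Cd93 was nearer to Emcn than both (0.42). Eng (Ehd4, 0.24, and Chst7, 0.24) and Ecscr (B3gnt3, 0.24, and Rflnb, 0.26) had neighbours outside the endothelial marker lists. Podxl (Lrrc3b, 0.61, and Mfng, 0.62) and Clec14a (Nt5e, 0.48, and Dapk2, 0.54) had no gene as near. Cd34 lay nearest to Coro2b (0.30) and the caveola gene Cavin1 (0.31), and 10628 tested genes were nearer to it than its closest fellow member, Ecscr (1.11).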

How the data were processed

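Bulk RNA was sequenced (modified Smart-Seq2, oligo-dT primed) from 15 libraries, 5 per population by the labels. Per the study's methods and processing notes, the authors demultiplexed with bcl2fastq 2.17, mapped reads to mm10 (GRCm38) with STAR 2.5.3a, counted them per gene with HTSeq and divided by DESeq2 1.10.1 size factors. The deposited signal is this normalized count per gene. Each library's smallest step gave whole reads for all values (tolerance 0.01), which edgeR and DESeq2 used as alternatives. The deposited comparison tables hold the authors' fold changes and p-values and were not used. HTSeq can leave out reads shared by overlapping genes, and its strand setting is not given in the sources used here.

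The 25549 genes whose mean normalized count reached 5 were tested in limma 3.58.1 (trend, R 4.3.3) on log2(normalized count + 1) over all 15 libraries, with Benjamini-Hochberg adjustment over all tested genes and a threshold of 0.05. Such log2 differences are unsteady for low genes and can be too large or too small. That of Podxl between EVP and D ran from 6.43 to 9.03 over the alternatives. edgeR 4.0.16 and DESeq2 1.42.0 were alternatives, beside pseudocounts, filters, scalings, array weights, a replicate block and left-out libraries. The code was tested on simulated data. Positions are those of the deposited table (GRCm38). Exon lengths come from GENCODE. All 10 members are named. Of each pathway list at most 4 called genes with the largest EVP to D difference are named, and for each member its nearest 2 genes were sought. Members and lists were chosen with earlier results of these data known.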

Additional observations from a re-analysis of the deposited data

Results flagged for a closer look

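Of 30 groups of 5 libraries (10 members in 3 populations), 2 held a library whose gap to its nearest neighbour took more than 0.71 of the group's range, a limit that chance passes in about 1 group in 20. Eng in TA replicate 1 was at 12113 normalized counts, and the next TA library was at 5053, a gap of 0.787 of the range. Egfl7 in EVP replicate 5 was at 514 normalized counts, and the next EVP library was at 171, a gap of 0.773 of the range.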

How the results depend on the processing

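Of the differences between populations for the 10 members, 818 of the alternative values kept direction and side of the threshold, 43 lost a call, 9 gained one and 0 reversed. The EVP against D count was 9 under every alternative. The EVP against TA count, 8 in the reported fit, was 5 with array weights (2.71% of all genes), 0 without replicate 1 of every population (0.407%) and 4 with edgeR without them (1.22%; edgeR and DESeq2 without them were chosen after seeing the data), and leaving out single libraries gave 7 to 8. The TA against D count ranged from 6 to 10 without single libraries and was 6 with edgeR and 7 with quantile normalization. With the replicate number as a block 9, 8 and 9 members were called. Same-numbered libraries of each comparison correlated at -0.14 to 0.69, over 0.1 in 11 of 15 pairs. The numbers were taken to pair the samples only if all 15 were over 0.1, so the block was kept as an alternative, although 12 of the 15 were highest with their own number, a hint from the data that same-numbered libraries share something. The cause of these changes was not tested.

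Relative to Cdh5, 30 alternative values of members near 0 changed sign. With a pseudocount of 8 Podxl was at -0.25 (EVP against D) and -0.63 (EVP against TA). With the pan-endothelial mean as reference, Emcn, Cd93, Mmrn2, Plvap and Egfl7 were at 1.58, 1.22, 0.98, 1.27 and 1.00 between EVP and D and at 1.26, 1.02, 0.54, 0.72 and 0.74 between EVP and TA, and Cd93 was at 0.19 between TA and D. Without replicate 1, Emcn was at 0.21 (EVP against D) and 0.17 (EVP against TA), and Egfl7 at -0.05 (TA against D). Leaving out single libraries gave ranges of -0.28 to 0.13 for Emcn between EVP and D, of -0.40 to 0.04 for Emcn and -0.33 to 0.65 for Podxl between EVP and TA, and, between TA and D, of -0.14 to 0.29 for Emcn, -0.13 to 0.19 for Egfl7, -0.17 to 0.040 for Cd93 and -0.81 to 0.15 for Eng. Few reads limit Podxl and Cdh5 in EVP.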
